A study of Mus musculus with 3 samples.

Results

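The genes described here are 40 mouse genes that write, erase or read lysine acetylation on histones and other proteins. They were taken from a list of gene symbols, and every non-control probe that carried 1 of those symbols was used, which gave 65 probes. The 40 genes are part of 23232 genes tested on the arrays. By role they are 16 writers (6 catalytic acetyltransferases and 10 subunits of their complexes or of ING complexes), 18 erasers (11 zinc-dependent deacetylases and 7 sirtuins) and 6 bromodomain readers. All 65 probes were well above background in both channels on all 3 arrays, so each of the 40 genes had a measured level in the neonatal dorsal cortex.

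The study set wild-type pups against Brpf1-deficient pups at postnatal day 4. Total RNA from the dorsal cortex of the brain was amplified from 350 ng per sample, and each of 3 Agilent arrays carried 1 wild-type sample labelled Cy3 and 1 Brpf1-deficient sample labelled Cy5. No array had the dyes the other way round, so a dye effect and a difference between the genotypes cannot be told apart on any of these arrays. No treatment was given to either group. The sources used here do not give the allele, the promoter that drives any recombinase, the cells that lose Brpf1 or the litters, and p-values measure the spread between these 3 pairs only. In tissue RNA, fewer cells of a type and less RNA per cell cannot be told apart.

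Acetyltransferases transfer an acetyl group from acetyl-CoA to lysines, which loosens histone contacts with DNA and makes docking sites for bromodomains. Deacetylases remove it, either through a zinc ion (the HDAC proteins) or by consuming NAD (the sirtuins). Brpf1 is a scaffold that holds acetyltransferases of the MOZ, MORF and HBO1 type on chromatin. In developing cortex, acetyltransferases such as CBP and p300 are known for neuronal gene activation, and Hdac1 and Hdac2 for the exit of progenitors from division.

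Ratios are given as log2 of Cy5 over Cy3, so a positive value is brighter in the channel labelled Brpf1-deficient and a negative value brighter in the channel labelled wild type. The Brpf1 probe itself went against those labels. Its ratio was 0.63, 0.73 and 0.96 on arrays 1, 2 and 3, a mean of 0.77 ± 0.17 (SD, n = 3), or 1.71-fold brighter in Cy5 (limma, adjusted p = 0.00446). In the authors' deposited table the same probe has a log2 fold change of -0.80, with an adjusted p of 0.240 in their limma fit. That probe may lie outside a deleted part, and the channel that holds each genotype is not settled by these data. Every direction below is therefore a direction between channels as labelled. It is opposite in sign to the authors' deposited table for every probe of these genes listed there. Which genotype is the numerator of that table is not stated, so whether the opposite signs are a disagreement is not known.

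Over all genes, 3982 of 23232 passed an adjusted p of 0.05 in limma, which is 17.1% of those tested. Of all genes tested, 7.97% were called brighter in Cy5 and 9.17% brighter in Cy3. Well above background were 57.9% to 61% of the 59305 spots that are not controls, depending on channel and array, and no spot was saturated. Genes with a mean log2 intensity over 16, 698 in number, had a median ratio of 0.22, while the genes in the range of the 40 acetylation genes (8.15 to 14.77) had a median of -0.014. Dorsal cortex markers were measured for 11 of 11 genes, 10 of them above background in both channels on all arrays. The exception was Emx1, a dorsal forebrain homeobox gene, with ratios of 0.65, -2.72 and -2.65 (adjusted p = 0.103, limma). The X-inactivation transcript Xist had ratios of 4.24, -4.83 and 5.18 and the Y-linked Ddx3y -5.33, 5.44 and -5.56, so each array paired pups of opposite sex, with the order on array 2 the reverse of that on arrays 1 and 3.

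Of the 40 acetylation genes, 4 were called, or 10%, beside the 17.1% of all genes. The 3 brighter in Cy3 were the acetyltransferase Ep300, the sirtuin Sirt1 and the bromodomain gene Brd8, and the 1 brighter in Cy5 was the class IIa deacetylase Hdac5. Without array 3 none of the 4 passed in limma (adjusted p 0.0581 to 0.157), and none did when the scanner's processed signals were used (0.0531 to 0.0913). The other 36 had mean ratios between -0.26 and 0.14, and the 95% interval of each of them lay within -0.45 to 0.31. A difference of more than 1.36-fold towards Cy3 or 1.24-fold towards Cy5 is outside every one of those intervals. They are the intervals of each gene's brightest probe only. Intervals of further probes went past them for some of these genes, such as Msl1 (0.25 to 0.57) and Brd7 (-0.54 to -0.19). The median size of the ratio, sign ignored, was 0.087 over the 40 genes and 0.14 over all genes. Ratios had the same sign on all 3 arrays for 19 of the 40, beside 13810 of the 23232 genes tested. Across the 40 genes the ratios of any pair of arrays correlated at Pearson's r of 0.51 to 0.54, against 0.57 to 0.70 across all genes, where genes are not independent replicates and all arrays share the dye order.

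**Figure D1:**
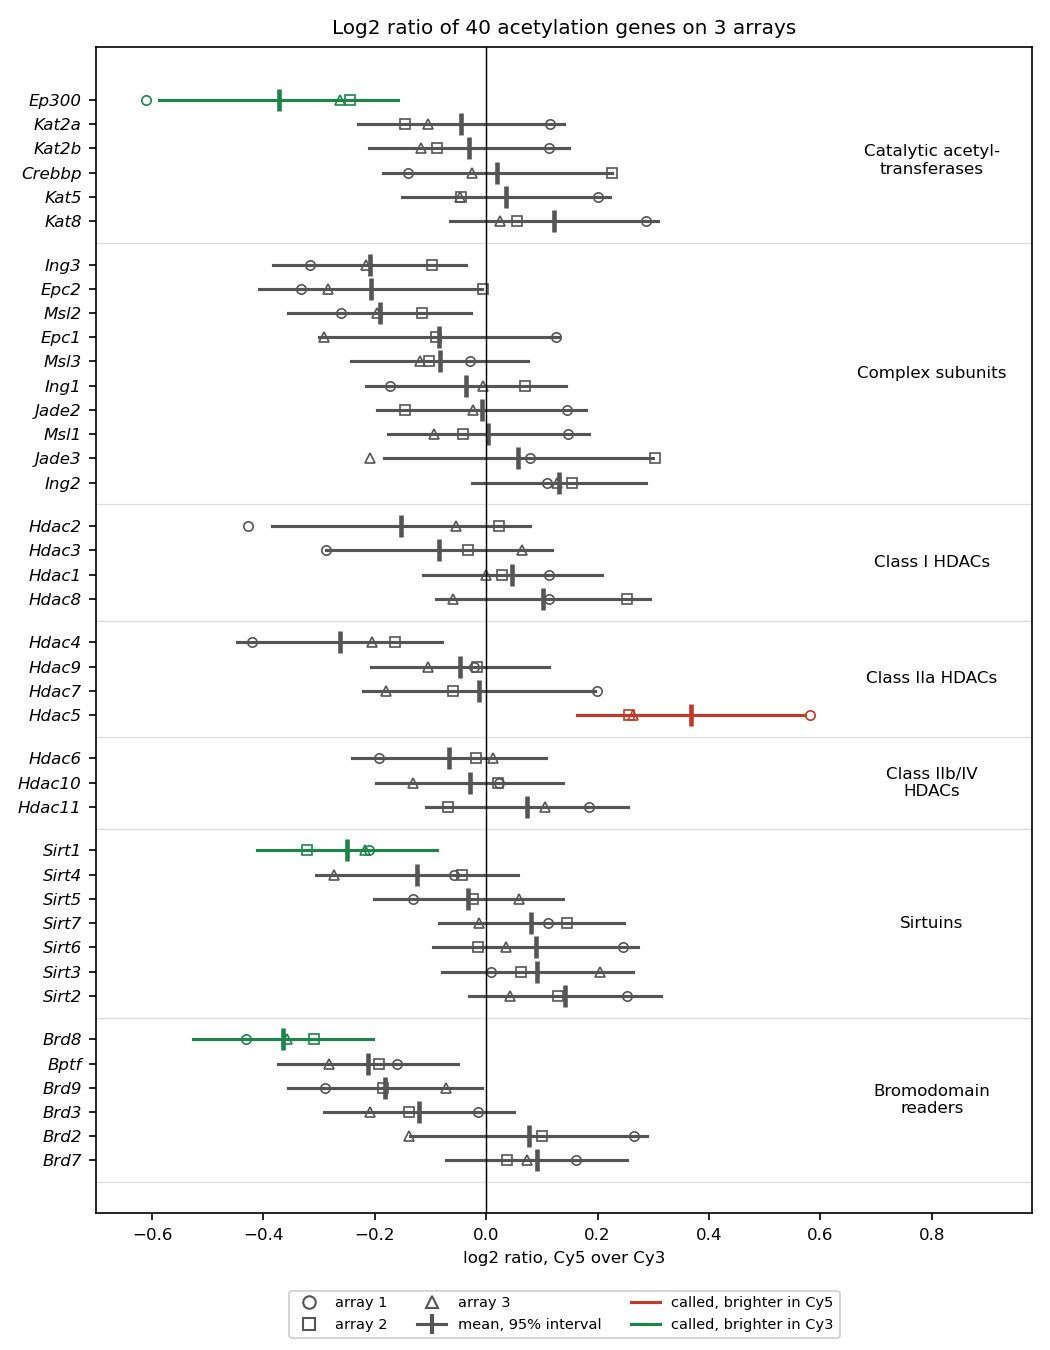
Log2 ratio of Cy5 over Cy3 (x axis) for each of the 40 genes, grouped by role, with a marker for each of the 3 arrays, a bar for the mean and a line for limma's 95% interval. Each gene is shown at its brightest probe. Ep300, Sirt1 and Brd8 lie left of 0 with their whole intervals and Hdac5 right of 0. The intervals of the other 36 stay within -0.45 to 0.31.

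No promoter sequence is printed for the called gene Brd8. The promoter sequences of the called genes Ep300, Sirt1 and Hdac5 are shown because the ratios of these genes passed the threshold. They come from RefSeq (build GRCm38.p6) and cover the 250 bases before the start, 5′ to 3′ along the gene, with matches to the GC box GGGCGG or its reverse complement CCGCCC in capitals. The Ep300 stretch is chr15:81585964-81586213 on the plus strand, that of Sirt1 is chr10:63339036-63339285 on the minus strand, and that of Hdac5 is chr11:102230173-102230422 on the minus strand.
Ep300: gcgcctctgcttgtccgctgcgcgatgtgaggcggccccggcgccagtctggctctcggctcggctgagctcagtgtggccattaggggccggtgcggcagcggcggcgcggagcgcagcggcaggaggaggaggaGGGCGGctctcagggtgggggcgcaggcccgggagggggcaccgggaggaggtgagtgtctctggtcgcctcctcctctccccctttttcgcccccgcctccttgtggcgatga
Sirt1: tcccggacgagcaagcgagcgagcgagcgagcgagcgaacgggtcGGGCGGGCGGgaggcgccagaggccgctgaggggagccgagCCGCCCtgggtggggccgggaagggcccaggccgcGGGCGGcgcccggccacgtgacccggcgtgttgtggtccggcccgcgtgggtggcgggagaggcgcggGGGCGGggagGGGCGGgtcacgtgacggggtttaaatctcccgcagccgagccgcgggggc
Hdac5: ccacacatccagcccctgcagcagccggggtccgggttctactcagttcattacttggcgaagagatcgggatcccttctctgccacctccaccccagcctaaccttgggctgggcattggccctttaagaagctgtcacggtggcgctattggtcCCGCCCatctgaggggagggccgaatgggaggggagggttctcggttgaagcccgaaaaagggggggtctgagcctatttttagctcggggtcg
The Sirt1 stretch holds 6 GC box matches, 2 of them overlapping, and 39 CG dinucleotides, while Ep300 and Hdac5 hold 1 match each, with 25 and 12 CG dinucleotides. Hdac5 also has 2 matches to CCAAT (either strand), and none of the 3 holds TATAAA or TGACGTCA. RefSeq promoters were matched for 34 of the 40 genes, 54 promoters in all. The GC box was in 68.5% of those 54 and in 32.7% of all 32851 promoters of the same length. At least 15 CG dinucleotides were found in 64.8% of them and in 27.3% of all promoters. CCAAT was in 35.2% against 33.8%, TATAAA in 7.4% against 12.4%, and TGACGTCA, the cAMP response element, in 3.7% against 1.5%, all searched on both strands. The 32851 promoters belong to 27025 genes, detected on these arrays or not, and a gene with several starts counts once per start. All 40 genes were detected, and a comparison with other detected genes alone was not made.

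Among the catalytic writers, Ep300 was the only one of 6 called. Ep300 encodes p300, a co-activator that acetylates histones at enhancers and promoters. Its ratios were -0.61, -0.24 and -0.26 on arrays 1, 2 and 3, from log2 intensities of 11.15, 11.28 and 11.22 in Cy3 and 10.54, 11.03 and 10.96 in Cy5. The channels do not overlap, and array 1 stands furthest from 0. A lack of overlap does not set called genes apart, since it also held for some uncalled ones. Examples are Kat8 (12.519 to 12.567 in Cy3, 12.571 to 12.854 in Cy5) and Brd3 (12.982 to 13.147 and 12.915 to 12.966). The mean was -0.37 ± 0.21 (SD, n = 3), 1.30-fold brighter in Cy3 (limma, adjusted p = 0.0365). Without array 1 the mean was -0.25 with an adjusted p of 0.0506, and without array 3 it was -0.43 with an adjusted p of 0.0585, both by limma.

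Crebbp, which encodes CBP, the close relative of p300, had ratios of -0.14, 0.23 and -0.03, on both sides of 0. Its mean was 0.02 ± 0.19 (adjusted p = 0.888, limma), with a 95% interval of -0.19 to 0.23, and whether Ep300 and Crebbp differ from each other was not tested. Kat8, the acetyltransferase of the MSL and NSL complexes, had 0.29, 0.06 and 0.02, a mean of 0.12 ± 0.14 (adjusted p = 0.299, limma). Kat2a (GCN5) and Kat2b (PCAF), enzymes of the SAGA and ATAC co-activators, had means of -0.05 ± 0.14 and -0.03 ± 0.12. Kat5, the TIP60 enzyme of the NuA4 complex, had a mean of 0.04 ± 0.14. Array 1 was above 0 and arrays 2 and 3 below it for Kat2a, Kat2b and Kat5 alike, and none of the 3 was called.

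None of the 10 complex subunits was called at its brightest probe. The smallest adjusted p among them was that of Ing3, a reader of methylated histone tails in NuA4, with -0.32, -0.10 and -0.22 (mean -0.21 ± 0.11, adjusted p = 0.0889, limma). Its further probe gave -0.18, -0.22 and -0.22. Msl2, the ubiquitin ligase subunit of the MSL complex, had -0.26, -0.12 and -0.20 (mean -0.19 ± 0.07, adjusted p = 0.0963, limma). Epc2, a NuA4 scaffold, had -0.33, -0.006 and -0.28 (mean -0.21 ± 0.18, adjusted p = 0.126, limma), and its further probe -0.26, -0.08 and -0.18. These 3 had unadjusted p-values below 0.05 and lay on the Cy3 side on every array, but they did not pass after adjustment. Ing2, a subunit of the Sin3 deacetylase complex, had the narrowest spread, 0.11, 0.15 and 0.13 (mean 0.13 ± 0.02, adjusted p = 0.196, limma). The chromodomain subunit Msl3 had a mean of -0.08 ± 0.05. Epc1, the paralogue of Epc2, had a mean of -0.09 ± 0.21. Jade2 and Jade3, scaffolds that take the place of Brpf proteins in HBO1 complexes, had means of -0.0079 ± 0.15 and 0.06 ± 0.26. Of the subunits only Jade3 spanned more than 0.5 between arrays, with 0.08, 0.30 and -0.21.

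Class I deacetylases, the nuclear enzymes of the large corepressor complexes, gave 0 calls among 4 genes in limma, with 0 also at an unadjusted p below 0.05. Hdac2 had -0.43, 0.02 and -0.05, so its mean of -0.15 ± 0.24 (adjusted p = 0.298, limma) lay mostly with array 1. Its partner Hdac1, which shares the Sin3, NuRD and CoREST complexes, had 0.11, 0.03 and -0.0003 (mean 0.05 ± 0.06). Hdac3, the enzyme of the NCoR and SMRT corepressors, had -0.29, -0.03 and 0.06 (mean -0.09 ± 0.18). Hdac8, which deacetylates cohesin, had 0.11, 0.25 and -0.06 (mean 0.10 ± 0.16).

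Class IIa deacetylases shuttle between cytoplasm and nucleus and bind MEF2 transcription factors. Hdac5 was the only one of the 40 genes called brighter in Cy5. Its ratios were 0.58, 0.26 and 0.26, from log2 intensities of 13.42, 13.48 and 13.47 in Cy3 and 14.00, 13.74 and 13.73 in Cy5. Every Cy5 value is above every Cy3 value, and again array 1 stands furthest from 0. The mean was 0.37 ± 0.19 (SD, n = 3), 1.29-fold brighter in Cy5 (limma, adjusted p = 0.0341). Without array 3 its adjusted p was 0.0581. Hdac4, a paralogue of Hdac5, had -0.42, -0.16 and -0.20, all on the Cy3 side (mean -0.26 ± 0.14, adjusted p = 0.0587, limma). A test of the difference between Hdac4 and Hdac5 was not run. Hdac9 had -0.02, -0.02 and -0.10 (mean -0.05 ± 0.05) and Hdac7 0.20, -0.06 and -0.18 (mean -0.01 ± 0.19), neither of them called.

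The class IIb and IV deacetylases gave no call among 3 genes in limma, with 0 at an unadjusted p below 0.05. Hdac6, the cytoplasmic enzyme that deacetylates tubulin, had a mean of -0.07 ± 0.11, and its further probe stayed within 0.02 of 0 on all arrays. Hdac10, a polyamine deacetylase, had -0.03 ± 0.09, and Hdac11, the only class IV member, 0.07 ± 0.13.

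Of 7 sirtuins, Sirt1 was called. Sirt1 is the nuclear NAD-dependent deacetylase of histones and transcription factors. Its ratios were -0.21, -0.32 and -0.22, from log2 intensities of 12.12, 12.18 and 12.16 in Cy3 and 11.91, 11.86 and 11.94 in Cy5. The arrays lie close together and the channels do not overlap, as was also so for the uncalled Sirt2. The mean was -0.25 ± 0.06 (SD, n = 3), 1.19-fold brighter in Cy3, just past the threshold (limma, adjusted p = 0.0485), and leaving out any 1 array took it to between 0.0504 and 0.228. Sirt2, a cytoplasmic tubulin deacetylase abundant in myelin, had 0.25, 0.13 and 0.04 (mean 0.14 ± 0.11, adjusted p = 0.205, limma). Of the mitochondrial sirtuins, Sirt3 had 0.09 ± 0.10, Sirt4 -0.12 ± 0.13 and Sirt5 -0.03 ± 0.10. Sirt6, which acts at telomeres and on DNA repair, had 0.09 ± 0.14 and the nucleolar Sirt7 0.08 ± 0.08.

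Among the 6 bromodomain readers, Brd8 was called. Brd8 is the bromodomain subunit of NuA4, which also holds Kat5, Epc1, Epc2 and Ing3. It had the smallest adjusted p of the 40 genes. Its ratios were -0.43, -0.31 and -0.36, from log2 intensities of 11.26, 11.32 and 11.41 in Cy3 and 10.83, 11.01 and 11.06 in Cy5, with no overlap. The mean was -0.37 ± 0.06 (SD, n = 3), 1.29-fold brighter in Cy3 (limma, adjusted p = 0.0188). Its further probe gave -0.48, -0.24 and -0.50, a mean of -0.41 ± 0.15 that was also called over all probes (adjusted p = 0.0218, limma). Without array 3 the adjusted p at the brightest probe was 0.0684.

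Bptf, the reader subunit of the NURF remodeller, had -0.16, -0.19 and -0.28 (mean -0.21 ± 0.06, adjusted p = 0.0725, limma). Brd9, of the non-canonical BAF remodeller, had -0.29, -0.18 and -0.07 (mean -0.18 ± 0.11, adjusted p = 0.122, limma). Both lay on the Cy3 side on every array without passing. The BET proteins Brd2 and Brd3, which hold transcription machinery at acetylated chromatin, had means of 0.08 ± 0.20 and -0.12 ± 0.10, and Brd7, of the PBAF remodeller, 0.09 ± 0.06.

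By class, the median ratio was -0.03 over the 16 writers, -0.02 over the 18 erasers and -0.15 over the 6 readers, beside -0.0064 over all genes. On arrays 1, 2 and 3 the readers' median was -0.09, -0.16 and -0.17, the erasers' 0.02, -0.02 and -0.0064, and the writers' 0.09, -0.07 and -0.11. The readers lay below the other classes on each array, but 6 genes are few and no test of the classes against each other was run. Writers gave 0 calls in Cy5 and 1 in Cy3, erasers 1 and 1, and readers 0 and 1. At an unadjusted p below 0.05 there were 1 gene in Cy5 and 9 in Cy3 among the 40, beside 4030 and 4517 among all genes. Under median centring of each array in place of loess, a curve fitted to the ratio against brightness, the class medians were 0.09, 0.06 and 0.05 for writers, erasers and readers. All 3 were then above 0, and the readers lay only just below the erasers. The share of all calls that lay in Cy5 then went from 46.5% to 83.4%, and the 5 acetylation genes called were all brighter in Cy5: Brd2, Brd7, Hdac5, Msl1 and Sirt2.

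**Figure D2:**
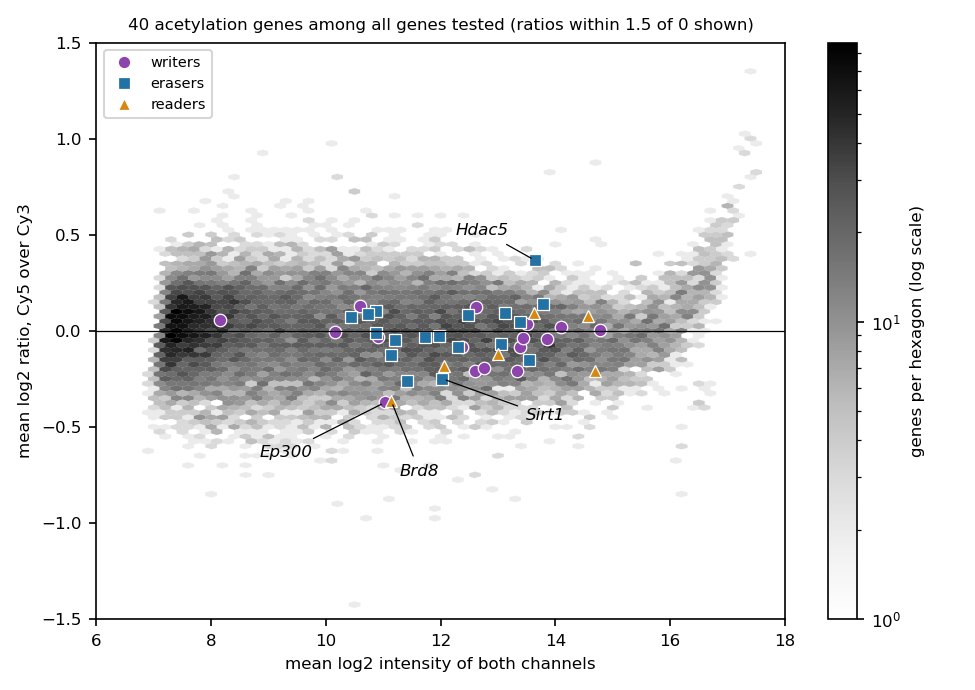
Mean log2 ratio of Cy5 over Cy3 (y axis) against mean log2 intensity of both channels (x axis) for all genes tested, as grey hexagons shaded by the number of genes, with the 16 writers, 18 erasers and 6 readers as coloured markers. The 40 genes lie between 8.15 and 14.77 in brightness, below the bright end over 16 where the genes bend upwards to a median of 0.22, and the 4 called ones are named.

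Further probes of the same genes gave a different picture for some of them. Of the 40 genes, 20 had more than 1 probe, with 25 further probes in all. Over all probes, 7.48% were called brighter in Cy5 and 9.37% brighter in Cy3. Among the 65 probes, 4 were called in Cy5 and 5 in Cy3, neither share above that of all probes. None of these 9 passed without array 3. In 5 genes a further probe was called while the brightest was not, and in 7 genes probes differed in the sign of their mean (Brd7, Epc1, Hdac10, Hdac9, Kat2a, Kat5 and Sirt4). How often either occurs among all genes with several probes was not counted. Of these 7 genes only Brd7 had a called probe. Mean ratios were -0.05 and 0.03 for Kat2a, 0.04 and -0.02 for Kat5, -0.09, 0.12 and -0.16 for Epc1, -0.05 and 0.08 for Hdac9, and -0.03 and 0.05 for Hdac10. Sirt1, with its only probe, had an adjusted p of 0.051 among all probes.

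Msl1, the scaffold of the MSL complex, had 0.15, -0.04 and -0.09 at its brightest probe (mean 0.0038) and 0.42, 0.37 and 0.44 at the other (mean 0.41 ± 0.04, adjusted p = 0.0141, limma). The other probe was above the brightest on every array. Brd2 had 0.27, 0.10 and -0.14 at its brightest probe and 0.42, 0.35 and 0.37 at the further one (mean 0.38 ± 0.04, adjusted p = 0.0171, limma). The probes of Sirt7 gave means of 0.08, 0.37 and 0.11, and the one at 0.37 was called, with 0.54, 0.33 and 0.25 on the arrays (adjusted p = 0.0270, limma).

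Brd7 had 0.16, 0.04 and 0.07 at its brightest probe and -0.35, -0.27 and -0.48 at the other (mean -0.36 ± 0.11, adjusted p = 0.0236, limma), so its 2 probes lay on opposite sides of 0 on every array. Ing1, a subunit of the Sin3 deacetylase complex that reads methylated histone tails, had means of -0.04, -0.28 and -0.36 at its 3 probes. The last of these was called, with -0.52, -0.27 and -0.27 (adjusted p = 0.0293, limma). Sirt4 had -0.06, -0.04 and -0.27 at its brightest probe and 0.35, 0.12 and 0.22 at the other (mean 0.23 ± 0.11, adjusted p = 0.0749, limma).

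The difference between a further probe and the brightest was then tested itself, within each array, over all 6189 such pairs, of which 14.2% were called. Close to that share, 4 of the 25 pairs here were called. They were Brd7 (further minus brightest -0.46, adjusted p = 0.0239), Msl1 (0.41, adjusted p = 0.0295), Ing1 (-0.32, adjusted p = 0.0409) and Sirt4 (0.35, adjusted p = 0.0453), all by limma. Without array 3 none of these 4 pairs passed. The pairs of Sirt7 (0.29, adjusted p = 0.0611) and Brd2 (0.31, adjusted p = 0.0678) did not pass in limma. RefSeq lists 5 promoters for Ing1, 3 for Brd2, 2 for Msl1 and 1 each for Brd7, Sirt4 and Sirt7. Where each probe lies on its transcript was not analysed here, so which transcripts the probes report is not known.

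**Figure D3:**
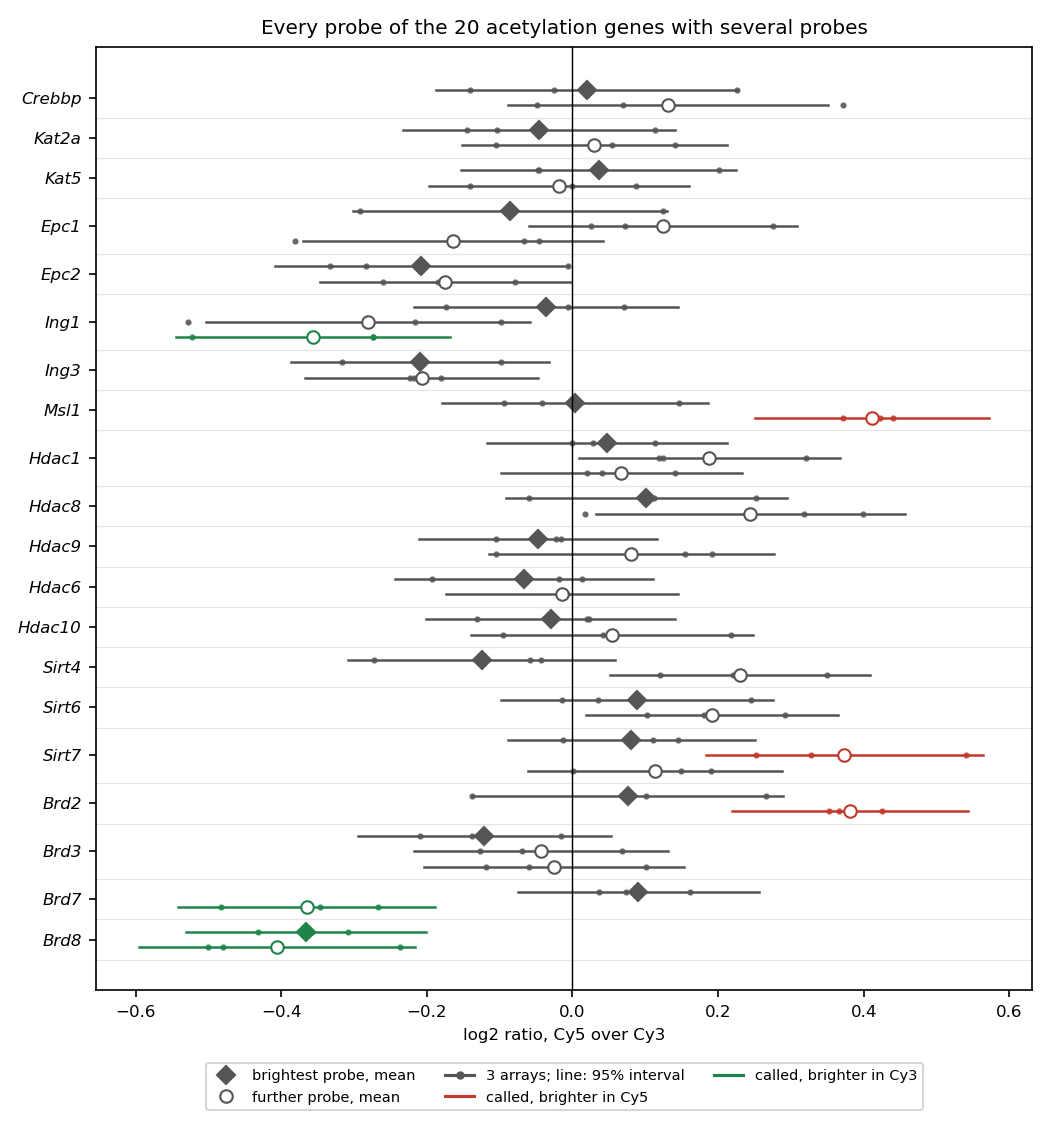
Log2 ratio of Cy5 over Cy3 (x axis) at every probe of the 20 genes with several probes, with a diamond for the brightest probe's mean, a circle for each further probe's mean, dots for the 3 arrays and lines for limma's 95% intervals. Both Brd8 probes are called in Cy3, while for Msl1, Brd2, Sirt7, Brd7 and Ing1 a further probe is called and the brightest is not.

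Other genes of the acetylation pathway were counted from lists of complex subunits, enzymes and readers. Among 26 other bromodomain and YEATS domain readers tested, 9 were called in Cy3 and 0 in Cy5, with 13 and 0 at an unadjusted p below 0.05 and a median of -0.17. The smallest adjusted p among them were those of Phip, a bromodomain protein named for binding an insulin receptor substrate, at -0.50 ± 0.04 (adjusted p = 0.00814, limma), and Baz2b, an ISWI remodeller subunit, at -0.39 ± 0.07 (adjusted p = 0.0157, limma). The count for this list fell to 2 in Cy3 and 2 in Cy5 under median centring, to 1 and 0 with the scanner software's signals, and to 1 and 0 without array 3. The 10 other acetyltransferases gave 2 calls in Cy3 and 0 in Cy5, Taf1 of the TFIID complex at -0.46 ± 0.19 and the circadian factor Clock at -0.31 ± 0.09 (adjusted p = 0.0198 and 0.0314, limma). Taf1 also has bromodomains and is 1 of the 9 readers called above. No other acetyltransferase was called without array 3 or under median centring.

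Of 14 further NuA4 subunits, the complex of Kat5 and Brd8, 2 were called in each direction. Ep400, its remodelling ATPase, had -0.37 ± 0.23 and Mbtd1, a methyl-lysine reader, -0.35 ± 0.11 (adjusted p = 0.0427 and 0.0270, limma). Morf4l1, a chromodomain subunit, had 0.36 ± 0.14 (adjusted p = 0.0291, limma), and Actb, the actin that is also a NuA4 subunit, 1.35 ± 0.06 (adjusted p = 0.000146, limma). Actb and Morf4l1 dropped from the test when probes with an average log2 intensity over 15 were left out, which left 2 calls in Cy3 and 0 in Cy5. Of 8 MSL and NSL subunits, 1 was called in Cy5 (Mcrs1, 0.32 ± 0.12) and 2 in Cy3, the sugar transferase Ogt at -0.50 ± 0.15 and the reader Phf20 at -0.42 ± 0.23 (adjusted p of these 3 = 0.0347, 0.0126 and 0.0306, limma).

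Deacetylase corepressor subunits gave 2 calls in Cy5 and 1 in Cy3 among 39. They were the Sin3 scaffold Sin3b at 0.27 ± 0.05, the Sin3 subunit Brms1 at 0.36 ± 0.24 and Mier3 of the MIER deacetylase complexes at -0.32 ± 0.09. SAGA and ATAC subunits gave 2 in Cy5 and 1 in Cy3 among 23 (Taf6l 0.29 ± 0.09, Taf10 0.34 ± 0.18 and Zzz3 -0.34 ± 0.20). Without array 1 there were 0 and 1 corepressor calls and none in SAGA and ATAC, and without array 3 there were 1 and 1 corepressor calls and again none in SAGA and ATAC. Of 14 genes that supply acetyl-CoA or use and make NAD, 2 were called in Cy5, the citrate carrier Slc25a1 at 0.46 ± 0.14 and the NAD hydrolase Cd38 at 0.35 ± 0.09, and 0 in Cy3, also at an unadjusted p below 0.05. Of 12 targets and partners of class IIa deacetylases, Mef2c at 0.43 ± 0.24 was called in Cy5, and its relative Mef2a at -0.34 ± 0.15 and the kinase Camk4 at -0.34 ± 0.20 in Cy3. In Cy5 and Cy3, NuA4 had 2 and 1 calls without array 1 and 1 and 1 without array 3, MSL and NSL 0 and 2 without array 1 and 0 and 3 without array 3, the class IIa targets and partners 1 and 0 without array 1, 2 and 2 without array 2 and 0 and 2 without array 3, and the acetyl-CoA and NAD genes 1 and 0 without array 2 or array 3. With the scanner software's signals, 1 gene was called over all 7 lists other than the readers, in Cy5 in the NuA4 list. Under median centring the calls of these lists lay in Cy5, with 10 of the corepressor subunits, 6 of NuA4, 5 of the class IIa targets and partners, 3 of SAGA and ATAC, 3 of the acetyl-CoA and NAD genes and 2 of MSL and NSL.

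**Figure D4:**
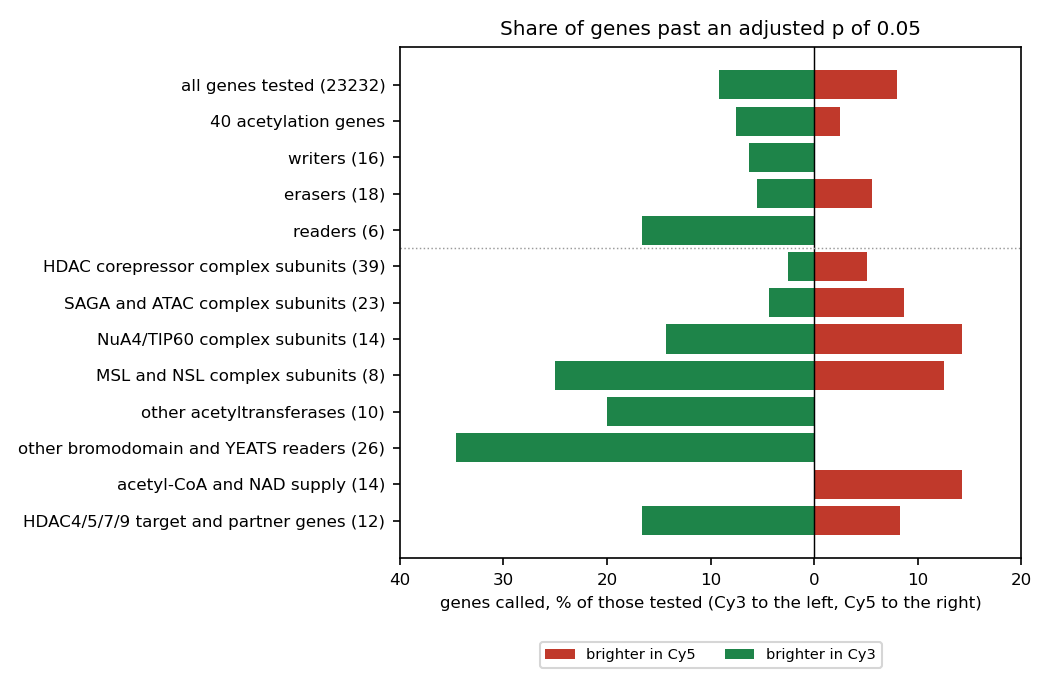
Share of genes called (x axis, % of those tested), in Cy3 to the left and Cy5 to the right, for all 23232 genes, the 40 acetylation genes and their 3 classes above the dotted line, and the lists of other pathway genes below it, with the number tested in parentheses. The other bromodomain and YEATS readers reach 34.6% in Cy3 and 0 in Cy5, beside 9.17% and 7.97% of all genes, and lists of 6 to 14 genes change by a large step with each call.

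Markers of other cells and regions were counted in the same way. All 12 striatal markers were above background in every channel, and 7 were called in Cy5 and 0 in Cy3, with medians of 0.92, 0.19 and 0.60 on arrays 1, 2 and 3. With 1 array left out 5 to 11 of them were called, and none with the scanner's processed signals. Their summed intensity was 51764 to 91818 in Cy3 and 102350 to 115478 in Cy5, with no overlap. Of 5 erythroid markers tested, 2 were called in Cy5, and the sum was 108523 to 272029 in Cy3 and 312335 to 441834 in Cy5. Of 10 microglial markers 3 were called in Cy5, with sums of 62318 to 69025 in Cy3 and 58352 to 67537 in Cy5. Astrocyte markers gave 2 of 7 in Cy3 (123283 to 130844 in Cy3, 113203 to 122167 in Cy5), and interneuron markers 3 of 8 in Cy5 and 2 in Cy3 (138402 to 148423 and 157276 to 166448). Dorsal cortex markers gave 4 of 11 in Cy5 and 2 in Cy3 (148749 to 162768 and 154074 to 157730). The oligodendrocyte lineage and the choroid plexus and meninges gave 0 of 7 each in limma, with 1 and 1 at an unadjusted p below 0.05, endothelial cells 1 of 7 and dividing cells 1 of 8, both in Cy5. Leaving out 1 array changed several of these counts. Without array 3 no dorsal cortex marker was called (1 in each channel without array 1), without any 1 array no dividing-cell marker was, without array 1 or array 3 no microglial marker was, and without array 1 or array 2 all 5 erythroid markers were called in Cy5. With the processed signals 2 interneuron markers in Cy5 and 1 in Cy3 were the only calls in the 10 marker lists. The part of these cells in the ratios of Ep300, Sirt1, Brd8 and Hdac5 was not tested.

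The X-linked genes among the 40 are Hdac6, Hdac8, Jade3 and Msl3, and none was called. Hdac8 (0.11, 0.25 and -0.06) and Jade3 (0.08, 0.30 and -0.21) were highest on array 2, where the sex order of the channels was reversed, and Hdac6 (-0.19, -0.02 and 0.01) and Msl3 (-0.03, -0.10 and -0.12) were not. The part of sex in these values was not tested. Ep300, Sirt1, Brd8 and Hdac5 kept their sign on array 2, but array 2 was among the arrays used to call them. That choice favours genes with the same sign on every array, so the part of sex in their ratios was not tested either.

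The authors' deposited table of 40000 rows, in which p runs up to 0.458, holds 41 of the 65 probes. All 41 have the opposite sign there, including all 9 probes called here, but the direction of the authors' fold change is not stated. For Brd8 the authors' deposited table gives log2 fold changes of 0.37 and 0.42 at its 2 probes, for Ep300 0.38, for Sirt1 0.25 and for Hdac5 -0.37. The smallest adjusted p of any of the 41 in the authors' deposited table is 0.240, that of the further Brd2 probe. Over all probes listed there the smallest is 0.159. No probe of any gene therefore passes 0.05 in the authors' limma fit, beside the 17.1% of all genes called here.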

How the data were processed

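Dorsal cortex RNA of 3 wild-type and 3 Brpf1-deficient pups was compared on 3 two-colour Agilent arrays, 1 pair per array. Per the file headers, Agilent Feature Extraction 10.7.3.1 (grid build mm9) produced the deposited intensity values (spot and background medians and processed signals) and the deposited log10 ratio, which was used only as a check. The authors' deposited table holds log2 fold changes, average log2 intensity, score columns (t and log-odds) and p-values made with limma, per the submitters' processing notes, with direction not stated. Flags for saturation, background and outliers are the deposited files' own.

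Spot medians, used because the files hold no spot means, were background-corrected (normexp, offset 50) and loess-normalized in limma 3.58.1 (R 4.3.3), control spots at weight 0. Replicate spots were averaged per probe. The channel intensities and sums printed also had limma's Aquantile normalization between arrays, which changes average intensities but not ratios. Probes stayed in if 2 or more arrays showed them well above background in either channel (32983 of 55681), and a gene is its brightest kept probe. An intercept-only fit with eBayes tested the ratio against 0 (two-sided, Benjamini-Hochberg over all genes, threshold 0.05, 95% intervals). Symbols came from RefSeq accessions (27656 probes) or the authors' table (4082). The fit was tested on simulated data. Only 3 arrays limit the precision.

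The 40 genes, the pathway and marker lists and the tests were chosen with earlier results of these data known. The text names each called gene, the 2 to 4 genes of smallest adjusted p in each class, genes whose probes disagree, and from each list at most 2 called genes in each direction, with Emx1, Xist and Ddx3y added after their values were seen. The test of probe differences and the alternative that takes the dimmest probe were added after the data were seen. Alternatives cover background correction, normalization, filters, the choice of probe, moderation, naming and each array left out. No sequence is printed for Brd8, and 6 of the 40 genes had no promoter entry matched.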

Additional observations from a re-analysis of the deposited data

How the results depend on the processing

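Ep300, Sirt1, Brd8 and Hdac5 kept their sign under all 15 alternatives, but none of the 4 was called without array 3 (adjusted p 0.0585, 0.157, 0.0684 and 0.0581, limma) or when the scanner's processed signals replaced the corrected medians (0.0805, 0.0913, 0.0531 and 0.0717). Under median centring Ep300, Sirt1 and Brd8 had adjusted p-values of 0.106, 0.151 and 0.0507. Sirt1 also missed the threshold with an offset of 16, intensity bins, no filter, no bright probes and the dimmest probe (0.0510 to 0.0585). Bptf was called with trend and robust moderation (0.0472). Brd7 was reversed at its dimmest probe (-0.36).

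The processed signals gave 1105 calls over all genes, 575 in Cy5 and 530 in Cy3. Leaving out 1 array gave 1864 to 3843 calls, with 764 to 1646 in Cy5 and 1100 to 2197 in Cy3, the lowest without array 3. Median centring gave 4466 in Cy5 and 891 in Cy3. Of the 40 genes, 5 were called in Cy5 and 0 in Cy3 under median centring, and 0 and 0 with the processed signals. With the dimmest probe 3 were called in Cy5 and 4 in Cy3. With 1 array left out 0 to 1 were called in Cy5 and 0 to 2 in Cy3. The writers' median was 0.0866 and the readers' 0.0520 under median centring, and with 1 array left out the writers' ran from -0.0937 without array 1 to 0.0056 without array 3 and the readers' from -0.1511 to -0.1267. The erasers' median was 0.0602 under median centring, -0.0011 with the processed signals, 0.0348 over the mean of a gene's probes, 0.0702 at the dimmest probe and -0.0134 to 0.0286 with 1 array left out. Probes of the 40 genes called were 0 with the processed signals and 0 to 9 with 1 array left out, and pairs of probes called 0 and 0 to 5, 2 of them without array 2. A fit on fewer arrays has less power, and otherwise the cause was not tested. The ratio within each array already pairs its samples, so no further fit with a replicate block was made.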
